A study of Caenorhabditis elegans with 6 samples.

Results

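The genes described here encode 9 enzymes and partner proteins that modify, trim and crosslink collagen in Caenorhabditis elegans: dpy-18, phy-2, pdi-2, let-268, bli-4, dpy-31, bli-3, tsp-15 and mlt-7. They were chosen by their symbols in the platform's gene table. Each is read by 1 probe set, so 9 of the 29317 deposited probe sets, of which 26192 carry a gene and were tested, belong to them. Whole N2 wild-type hermaphrodites, synchronised by bleaching, grew for 48 h on plates with E. coli OP50 to the L4 stage. They then spent 24 h at 20 °C in 50% M9 buffer. The control group (3 arrays) had buffer alone, and the exposed group (3 arrays) had buffer with BSA-SPIONs, iron oxide nanoparticles coated with bovine serum albumin, at 500 µg/mL. No group had albumin alone or uncoated particles, so the parts played by albumin, iron oxide and particle load cannot be told apart. Nothing in the labels ties the replicates to separate cultures. The p-values thus measure the spread between these 6 samples alone, and that spread may be technical. Control 3 carries the number 3 in its title and 2 in its source name, and the title was followed.

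The worm's cuticle is built largely of collagens secreted by the epidermis, and a new cuticle is made at each molt. In the endoplasmic reticulum, prolyl 4-hydroxylase modifies prolines so that the collagen triple helix is stable, and lysyl hydroxylase modifies lysines, mainly in the type IV collagens of basement membranes. After export, proteases remove the ends of the procollagens. At the cell surface a dual oxidase makes hydrogen peroxide, which peroxidases use to join tyrosines of neighbouring collagen chains. Mutants in several of these genes are known for dumpy shape, blistered cuticle or failed molting.

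Values are log2 expression values as deposited, after RMA normalization, and differences are exposed minus control on that scale. In limma 0 of the 9 genes passed an adjusted p of 0.05 over all tested probe sets, against 3.66% of all probe sets. At an unadjusted p under 0.05, 1 gene was lower (tsp-15) and 0 were higher, against 12.4% of all probe sets lower and 10.1% higher (22.5% in either direction). The groups did not overlap for tsp-15, and they overlapped for the other 8, whereas 28.2% of all probe sets had groups that did not overlap. The log2 changes were positive for 4 genes and negative for 5, beside 55.3% positive and 44.7% negative among all probe sets. Their median was -0.09, and that of all probe sets 0.05. With equal array medians the median of all probe sets moved to 0.27. The changes of the 9 genes ran from -0.62 to 0.22. In whole worms, fewer cells of a type and less RNA per cell cannot be told apart.

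**Figure D1:**
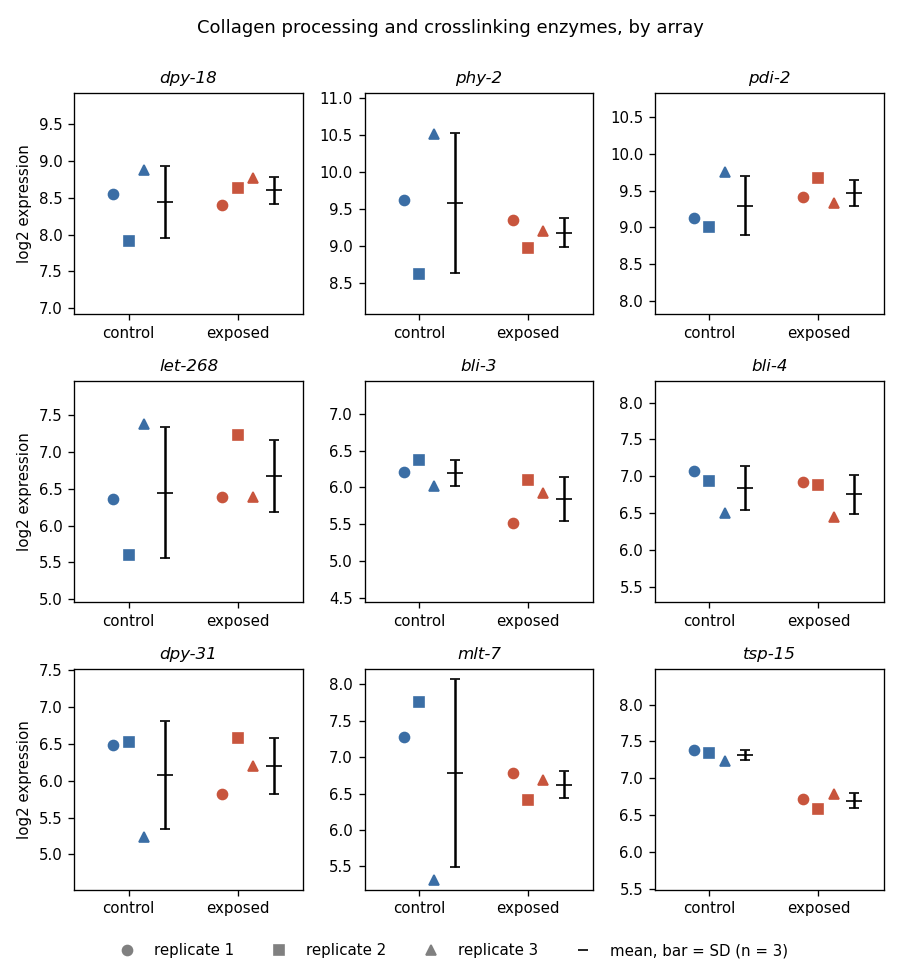
Log2 expression (vertical axes, each with its own range) of the 9 genes in control and exposed arrays. Symbols mark the replicate number and black bars the mean and SD of 3 arrays. For tsp-15 the 3 exposed arrays lie below the 3 controls, and for the other 8 genes the groups overlap.

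The medians of single arrays over all deposited probe sets lay between 3.92 and 3.95 in controls and between 3.64 and 3.88 in exposed samples. Epidermal markers had mid to high values in both groups, without detection calls to judge them by. The epidermal factor genes elt-3 and lin-26 had means of 8.09 and 8.50 in controls and 7.58 and 8.40 in exposed worms. The collagen gene col-19, known as an adult marker, was at 7.40 and 7.75. Of 14 epidermal markers 0 were called and 12 had a log2 change below 0 (median -0.39). Their mean level was 6.88 to 7.14 in controls and 6.49 to 6.87 in exposed arrays. The other marker lists moved by different amounts. Of 10 neuron markers 5 were called lower, beside 2.60% of all probe sets. This count was 1 without control 1 or control 2, 0 without exposed 1 and 3 without exposed 2 or exposed 3. Without control 3 it was 8, where 1335 of all probe sets were called lower, against 681 with all arrays. The neuron markers had a median log2 change of -1.30, with mean levels of 7.31 to 7.99 in controls and 6.41 to 6.42 in exposed arrays. Mean levels of 10 body wall muscle markers were 7.81 to 8.45 and 7.06 to 7.56, those of 10 germline and oocyte markers 7.14 to 7.87 and 7.79 to 8.58, those of 10 sperm markers 3.49 to 3.80 and 4.22 to 4.91, those of 9 intestine markers 7.94 to 8.03 and 7.58 to 7.89, and those of 9 embryo markers 3.74 to 4.60 and 4.11 to 4.38. Of the muscle markers 1 was called lower, as was 1 of the intestine markers. Of the sperm markers 2 were called higher, beside 1.06% of all probe sets. The germline and embryo lists had 0 calls. All of these calls were lost on leaving out any 1 of control 1, control 2, exposed 1 and exposed 3. Without control 3, 5 muscle and 2 intestine markers were called lower. Higher then were 2 sperm and 1 embryo markers, beside 661 of all probe sets. No deposited value was below 1.141, so a mean above 0 does not show that a list was detected. The part of these shifts in the values of the enzyme genes was not tested.

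The prolyl 4-hydroxylase of the cuticle is assembled from catalytic subunits encoded by dpy-18 and phy-2 and the disulfide isomerase subunit encoded by pdi-2. The gene dpy-18 was at 8.55, 7.91 and 8.87 in the controls and at 8.40, 8.63 and 8.76 in exposed arrays, here and below in the order of their replicate numbers. All exposed values lay between those of controls 2 and 3. Its log2 change was 0.16 (SE 0.27, 95% interval -0.48 to 0.79, adjusted p = 0.776 in limma).

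The other catalytic subunit gene, phy-2, was at 9.62, 8.61 and 10.51 in controls and at 9.36, 8.96 and 9.20 in exposed arrays. The controls spanned all of the exposed values, with an SD of 0.95 against 0.20. The log2 change was -0.41 (SE 0.44, interval -1.44 to 0.62, adjusted p = 0.629), and it turned to 0.06 without control 3. The gene pdi-2 was at 9.13, 9.01 and 9.75 in controls and 9.41, 9.67 and 9.33 in exposed arrays. Control 3 was above every exposed array, and controls 1 and 2 were below them. Its log2 change was 0.18 (SE 0.24, interval -0.39 to 0.75, adjusted p = 0.711).

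Within arrays, dpy-18 minus phy-2 was -1.14 ± 0.47 in controls and -0.57 ± 0.33 in exposed arrays (log2, SD, n = 3), with p = 0.2 in a two-sided exact permutation test, where 0.1 is the smallest p possible. The adjusted p over the 5 partner pairs compared was 0.75. The difference dpy-18 minus pdi-2 was -0.85 ± 0.26 and -0.87 ± 0.26 (exact p = 1). The intervals given above include changes of at least 0.62 upward and 0.39 downward on the log2 scale for each of the 3 subunit genes, so smaller changes were not resolved. The other prolyl hydroxylase genes on the array, phy-3 and phy-4, had log2 changes of 0.09 and 0.16 with adjusted p-values of 0.861 and 0.640. The control means of phy-3 and phy-4 were 2.73 and 2.81, and the exposed means 2.82 and 2.97. The filter on dim probe sets keeps means over the arrays of at least 3.866, the median of tested probe sets. It is no detection limit. Both genes were under this filter, at low levels where RMA compresses differences.

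The lysyl hydroxylase gene let-268, whose product is required for type IV collagen to leave the cells that make it, was at 6.36, 5.60 and 7.37 in controls and 6.39, 7.23 and 6.39 in exposed arrays. Control 3 and exposed 2 were high, and control 2 was low. Its log2 change of 0.22 (SE 0.46, interval -0.85 to 1.30, adjusted p = 0.815) became 0.69 without control 3 and -0.20 without control 2.

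The type IV collagen genes had negative log2 changes without passing the threshold. The gene emb-9 was at 8.14, 8.14 and 7.80 in controls and 7.41, 8.06 and 7.34 in exposed arrays (adjusted p = 0.357). Its partner chain gene let-2 was at 6.92, 7.11 and 6.75 and at 6.32, 6.79 and 5.83 (adjusted p = 0.232). In both, exposed 2 lay among the controls and exposed 1 and 3 lay below them.

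The laminin and nidogen genes of the same basement membrane list had positive log2 changes. The laminin gene lam-2 had the smallest p of the list. It was at 6.89, 7.03 and 7.27 in controls and 7.68, 7.78 and 7.75 in exposed arrays, with a log2 change of 0.68 (SE 0.18, adjusted p = 0.084), and it passed without control 3 (adjusted p = 0.0498) and with array weights (adjusted p = 0.0208). The laminin genes lam-1 and epi-1 and the nidogen gene nid-1 had log2 changes of 0.46, 0.54 and 0.76, and ost-1, which encodes the SPARC protein that binds type IV collagen, had one of -0.73, with adjusted p-values of 0.176, 0.133, 0.150 and 0.105. Of 7 genes measured in the list 0 passed, and the groups did not overlap for 5, beside 28.2% of all probe sets.

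The endoplasmic reticulum genes that fold procollagen included 1 called rise. Of 15 probe sets (14 genes) 1 was called higher, beside 1.06% of all probe sets, and 0 were called lower. The median log2 change of the list was 0.23. The called gene hsp-4, which encodes a BiP chaperone, was at 6.97, 7.31 and 6.96 in controls and 8.18, 8.32 and 8.49 in exposed arrays. The groups were well apart, by a log2 change of 1.25 (SE 0.19, 2.38-fold, adjusted p = 0.022).

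The call of hsp-4 was lost on leaving out any 1 of control 1, control 2, exposed 1 and exposed 3. The adjusted p was then at most 0.0967, and the direction was the same. Genes nearest to it in p were the prolyl isomerase gene fkb-5 with a log2 change of 0.96 (adjusted p = 0.0815), the disulfide isomerase gene pdi-1 with 0.60 (adjusted p = 0.150) and the thioredoxin-domain chaperone gene dnj-27 with 0.77 (adjusted p = 0.155), all with exposed arrays above controls. The calreticulin gene crt-1 and the calnexin gene cnx-1 had log2 changes of -0.22 and -0.14 with overlapping groups. Of 7 genes of collagen export 0 passed, with a median log2 change of 0.29. The smallest p of that list was that of sec-23, a COPII coat gene, at 6.38, 6.40 and 6.20 in controls and 7.005, 7.06 and 6.43 in exposed arrays (adjusted p = 0.232).

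Of the trimming enzymes, bli-4 encodes a proprotein convertase of the subtilisin type that cuts the amino-terminal end of cuticle procollagens. It was at 7.07, 6.94 and 6.51 in controls and 6.93, 6.89 and 6.45 in exposed arrays. Each group had its lowest value in replicate 3, and the groups overlapped. The log2 change was -0.09 (SE 0.23, interval -0.63 to 0.45, adjusted p = 0.861), and with equal array medians it was 0.13.

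The gene dpy-31 encodes an astacin metalloprotease that removes the carboxy-terminal end of the collagen SQT-3. It was at 6.48, 6.52 and 5.23 in controls and 5.83, 6.58 and 6.20 in exposed arrays. Control 3 was the lowest of all arrays, and controls 1 and 2 were near exposed 2. Its log2 change of 0.12 (SE 0.38, interval -0.77 to 1.02, adjusted p = 0.880) was -0.30 without control 3. Within arrays, bli-4 minus dpy-31 was 0.76 ± 0.45 in controls and 0.55 ± 0.48 in exposed arrays (SD, n = 3, exact permutation p = 0.5).

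The collagen gene sqt-3 was at 10.52, 10.74 and 10.98 in controls and 8.95, 10.37 and 9.08 in exposed arrays. Exposed 1 and 3 were far below the controls and exposed 2 was just below them. The log2 change was -1.28 (SE 0.38, adjusted p = 0.108), and without exposed 2 it was -1.74 and passed (adjusted p = 0.0199). The collagen gene dpy-17, which acts with sqt-3, was at 9.45, 9.55 and 10.17 in controls and 8.80, 10.45 and 8.97 in exposed arrays (adjusted p = 0.721). There exposed 2 was the highest of the 6 arrays, while exposed 1 and 3 were the lowest. Of 19 shape collagens measured 1 was called higher, beside 1.06% of all probe sets, and 0 lower, beside 2.60%. The median log2 change of the list was 0.18. The called gene was bli-6, at 2.43, 2.76 and 2.56 in controls and 4.10, 3.53 and 4.40 in exposed arrays (log2 change 1.43, SE 0.25, adjusted p = 0.0324). Its call was lost with the replicate block and on leaving out any 1 of the arrays except control 3 and exposed 2, where the adjusted p reached 0.123.

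Other proteases were called where bli-4 and dpy-31 were not. Of 14 genes for convertases, matrix proteases and their inhibitors 3 were called lower, beside 2.60% of all probe sets, and 0 higher, beside 1.06%. The median log2 change of these 14 was -0.10, with 10 changes negative and 4 positive. The astacin gene nas-7 was at 6.09, 6.51 and 7.09 in controls and 3.93, 4.02 and 4.46 in exposed arrays, a log2 change of -2.42 (SE 0.29, 5.36-fold lower, adjusted p = 0.0141). The astacin gene nas-6, known for its role in the pharyngeal cuticle, was at 4.11, 4.50 and 4.20 and at 2.77, 2.97 and 2.68 (2.76-fold lower, adjusted p = 0.0165). Its exposed values are near the low end of the scale, where RMA compresses differences, and its mean over the arrays, like that of bli-6, was under the filter on dim probe sets (3.866), so neither was tested there. The third was adt-1, a metalloprotease gene of the ADAMTS type. It was at 4.61, 4.45 and 5.01 in controls and 2.79, 3.21 and 3.22 in exposed arrays (3.07-fold lower, adjusted p = 0.0189). These exposed values too were under 3.866, toward the low end of the scale. In all 3 the exposed arrays lay more than 1 log2 unit below the lowest control.

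The sizes of these falls moved little when 1 array was left out, with log2 changes of -2.66 to -2.16 for nas-7, -1.54 to -1.35 for nas-6 and -1.74 to -1.46 for adt-1, while the adjusted p crossed the threshold. Without control 2 or exposed 1, 0 of the 3 were called, and without control 1 it was 1, with adjusted p-values up to 0.0802. Without control 3 the list had 5 called lower, where 1335 of all probe sets were, against 681 with all arrays. The proteases nearest to the threshold were nas-38 (log2 change -1.38, adjusted p = 0.0523) and the convertase gene egl-3, known for cutting neuropeptides (-0.96, adjusted p = 0.117). The furin-like convertase gene kpc-1 and the molting proteases nas-36 and nas-37 had log2 changes of -0.17, -0.15 and 0.33 with overlapping groups. The Kunitz-domain inhibitor genes bli-5 and mlt-11 had changes of 0.47 and 0.31, also with overlapping groups. Exposed neuron markers were lower, as given above, and their part in the value of egl-3 was not tested.

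**Figure D2:**
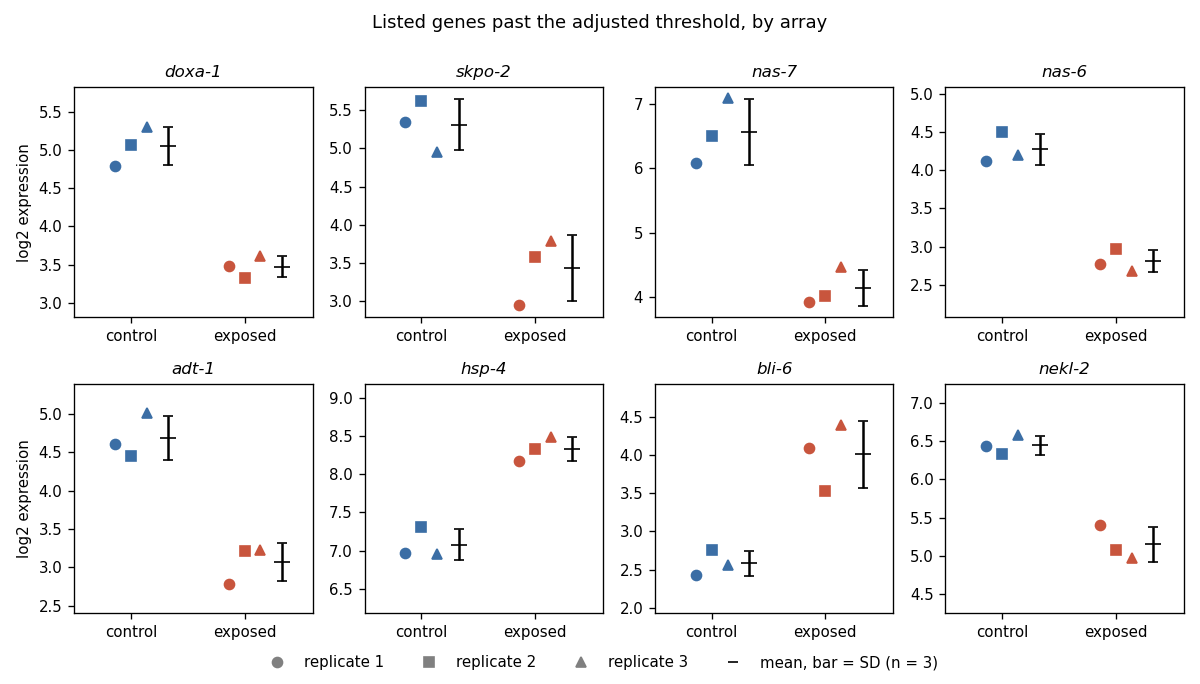
Log2 expression (vertical axes, each with its own range) of the 8 listed genes past an adjusted p of 0.05 in limma, in control and exposed arrays. Symbols mark the replicate number and bars the mean and SD of 3 arrays. Exposed arrays lie above all controls for hsp-4 and bli-6 and below them for doxa-1, skpo-2, nas-7, nas-6, adt-1 and nekl-2.

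The log2 change farthest from 0 among the 9 genes was that of tsp-15, a crosslinking gene. It encodes a tetraspanin of the epidermis, a membrane protein that forms a complex with the dual oxidase BLI-3 and its maturation factor DOXA-1. It was at 7.38, 7.34 and 7.24 in controls and at 6.71, 6.59 and 6.78 in exposed arrays. The 3 exposed arrays lay below the 3 controls, each group within 0.2 log2 units. The log2 change was -0.62 (SE 0.17, interval -1.01 to -0.23, 1.54-fold lower), and the adjusted p in limma was 0.0857, which did not pass.

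The direction of tsp-15 was the same under all 15 alternatives, with log2 changes of -0.71 to -0.41, the smallest with equal array medians. It passed with array weights (adjusted p = 0.0254) and did not in the other 14, where the adjusted p ran up to 0.230. The epidermal marker list, whose median log2 change was -0.39, also had exposed means below every control, and its part in the value of tsp-15 was not tested.

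The dual oxidase gene bli-3 was at 6.20, 6.37 and 6.02 in controls and 5.52, 6.10 and 5.92 in exposed arrays. Exposed 2 lay above control 3, so the groups overlapped, and exposed 1 was the lowest. The log2 change was -0.35 (SE 0.22, interval -0.86 to 0.15, adjusted p = 0.378). It was negative under all 15 alternatives, from -0.48 to -0.14. Within arrays, bli-3 minus tsp-15 was -1.12 ± 0.13 in controls and -0.85 ± 0.35 in exposed arrays (SD, n = 3, exact permutation p = 0.3). The second dual oxidase gene, duox-2, was at 2.10, 2.11 and 2.43 in controls and 2.20, 2.06 and 2.46 in exposed arrays. These values are near the low end of the scale, where RMA compresses differences.

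The gene doxa-1 fell. It was at 4.79, 5.07 and 5.29 in controls and 3.48, 3.33 and 3.61 in exposed arrays, with more than 1 log2 unit between the groups. The log2 change was -1.58 (SE 0.20, 2.99-fold lower, adjusted p = 0.0157). Its exposed values were under 3.866, toward the low end where RMA compresses differences. Its mean over the arrays passed the filter on dim probe sets, and it was called there (adjusted p = 0.0126 in limma). The call held in 12 of 15 alternatives and was lost on leaving out control 1, control 2 or exposed 1 (adjusted p at most 0.0738).

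The peroxidase gene mlt-7, whose product works with BLI-3 in crosslinking and is needed for molting, had the widest spread of the 9 genes. It was at 7.28, 7.76 and 5.32 in controls and 6.78, 6.41 and 6.68 in exposed arrays. Control 3 was the lowest of all arrays, while controls 1 and 2 were the highest. The control SD was 1.29 against 0.19 in exposed arrays. The log2 change of -0.16 (SE 0.58, interval -1.51 to 1.19, adjusted p = 0.896) became -0.90 without control 3 (adjusted p = 0.0703), 0.33 without control 2 and 0.05 with equal array medians. Within arrays, bli-3 minus mlt-7 was -0.59 ± 1.13 in controls and -0.78 ± 0.47 in exposed arrays (SD, n = 3, exact permutation p = 0.9).

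Among the other peroxidases and oxidase partners, of 9 genes 2 were called lower, beside 2.60% of all probe sets, and 0 were called higher, beside 1.06%. The median log2 change of the 9 was 0.03, with 5 changes positive and 4 negative. Both calls were lost without control 1, control 2 or exposed 1. The log2 changes with 1 array left out were -1.71 to -1.46 for doxa-1 and -2.04 to -1.63 for skpo-2. Beside doxa-1 this was skpo-2, of a family of peroxidases with a ShK toxin-like domain, at 5.35, 5.62 and 4.96 in controls and 2.96, 3.58 and 3.78 in exposed arrays (log2 change -1.87, SE 0.28, 3.65-fold lower, adjusted p = 0.0212). The groups were well apart, and the adjusted p was at most 0.0900 with 1 array left out. The exposed values of skpo-2 were also under 3.866. Its relative skpo-1 was at 7.56, 7.48 and 6.81 and at 8.43, 7.48 and 8.003 (adjusted p = 0.243).

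The third relative, skpo-3, was at 6.02, 6.55 and 3.42 in controls and 6.13, 5.64 and 5.92 in exposed arrays (adjusted p = 0.691), so that control 3 alone was low, as for mlt-7. The peroxidasin genes pxn-1 and pxn-2, which act in the extracellular matrix, had log2 changes of -0.55 and 0.69 (adjusted p = 0.468 and 0.163). The catalase gene ctl-2 and the peroxiredoxin gene prdx-2, which remove hydrogen peroxide, had changes of 0.72 and -0.06 (adjusted p = 0.129 and 0.914). In limma 0 genes of this list were called higher, and without control 3 it was 1. Over all probe sets 278 were called higher with all arrays and 661 without control 3.

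**Figure D3:**
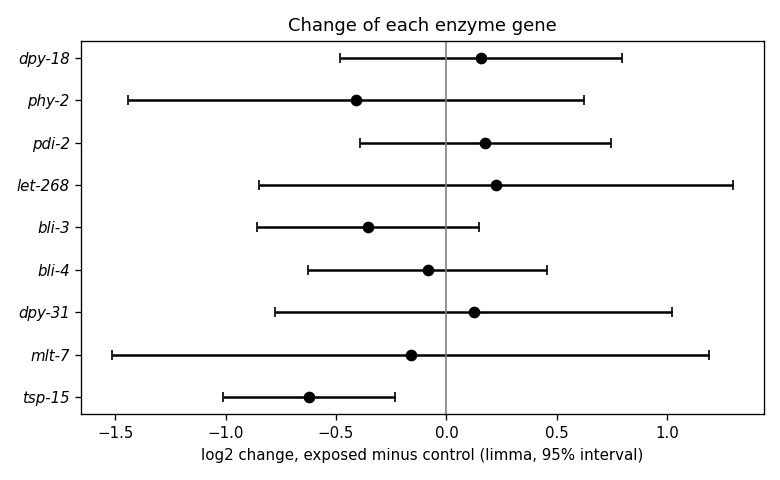
Log2 change, exposed minus control, of the 9 genes (horizontal axis) with 95% intervals from limma, 3 arrays per group. The interval of tsp-15, -1.01 to -0.23, lies below 0, and the intervals of the other 8 include 0. The widest are those of mlt-7, let-268 and phy-2.

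The spread of these genes lay mostly between controls. Control 3 was the highest of all 6 arrays for dpy-18, phy-2, pdi-2 and let-268, the genes whose products act in the endoplasmic reticulum, and the lowest for dpy-31 and mlt-7. Over all probe sets control 3 was highest for 19.7% and lowest for 20.1%. It was an extreme for 6 of the 9 genes, beside 39.8% of all probe sets. Control 2 was the lowest array for those same 4 endoplasmic reticulum genes and the highest for bli-3 and mlt-7, which makes 6 of the 9 genes, beside 33% of all probe sets. Relative to the mean of controls 1 and 2, control 3 was higher by 1.39 for phy-2 and 1.39 for let-268, by 0.68 for pdi-2 and by 0.65 for dpy-18 on the log2 scale. It differed by -2.20 for mlt-7, by -1.27 for dpy-31 and by -0.50 for bli-4. Exposed 2 stood apart for let-268, by 0.84 above the mean of exposed 1 and 3, and for dpy-31, by 0.57. The mean level over the 9 genes was 7.34 to 7.56 in controls and 7.26 to 7.45 in exposed arrays.

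**Figure D4:**
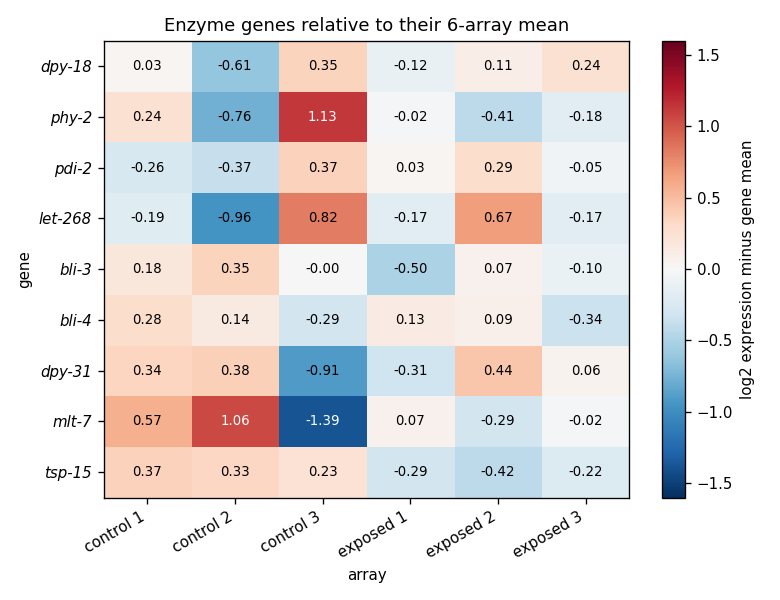
Log2 expression of each of the 9 genes (rows) in each array (columns), minus that gene's mean over the 6 arrays, as colour and printed value. Control 3 runs from -1.39 for mlt-7 to 1.13 for phy-2, and the row of tsp-15 is positive in the 3 controls and negative in the 3 exposed arrays.

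Genes of the molting cycle, many of which act in the epidermis, were read beside the enzyme genes. Of 16 measured 1 was called lower (nekl-2, a kinase gene), beside 2.60% of all probe sets, and 0 were called higher, beside 1.06%. The median log2 change was -0.44, with 10 changes negative and 6 positive. Exposed arrays lay below all controls for 6 genes, beside 13.5% of all probe sets, and above them for 2, beside 14.6%. Without exposed 2, and also with array weights, 5 were called lower, where 551 and 2143 of all probe sets were. Without control 3 or with array weights 2 were called higher, where 661 and 1330 of all probe sets were. The gene nekl-2 was at 6.43, 6.33 and 6.58 in controls and 5.40, 5.09 and 4.97 in exposed arrays (2.45-fold lower, adjusted p = 0.0209). Leaving out any 1 of control 1, control 2, exposed 1 and exposed 3 ended its call, at an adjusted p of at most 0.0899. The molting gene mlt-10 was at 7.04, 7.02 and 7.32 in controls and 4.74, 6.46 and 4.07 in exposed arrays (adjusted p = 0.0885), with exposed 2 nearest to the controls. The genes fbn-1 and let-653 had log2 changes of 1.21 and 0.87 (adjusted p = 0.0717 and 0.0992). In both, all exposed arrays lay above the controls. The mean over the list was 6.45, 6.47 and 6.79 in the controls, against 5.93, 6.67 and 5.89 in exposed arrays, so that exposed 2 lay within the controls. The part of molting stage in the values of the 9 genes was not tested.

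**Figure D5:**
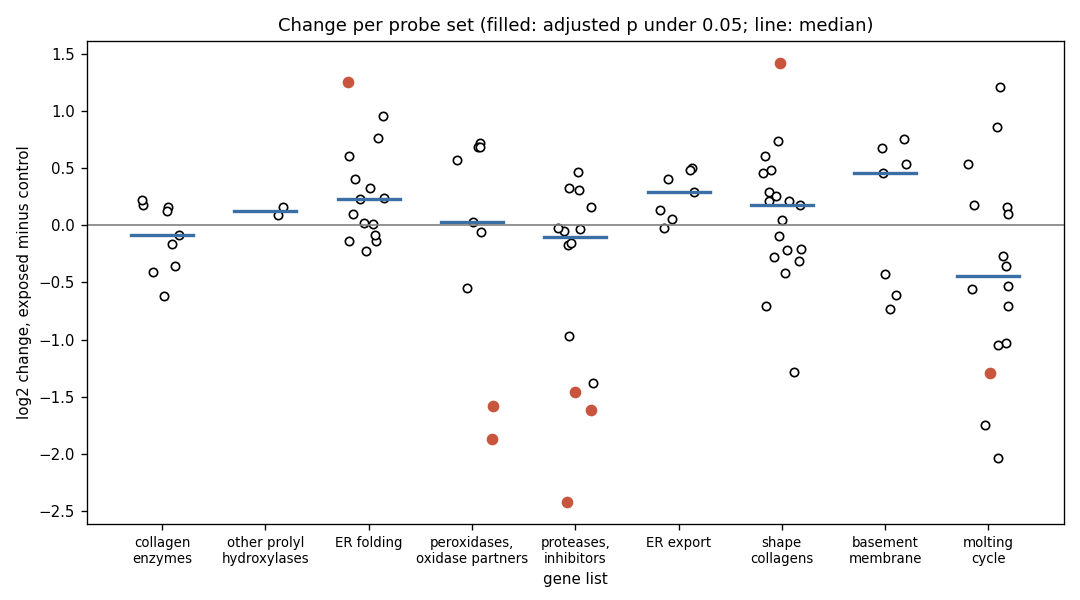
Log2 change, exposed minus control (vertical axis), of each probe set of the 9 enzyme genes and of the 8 related gene lists. Filled points passed an adjusted p of 0.05 in limma, open points did not, and lines mark medians. The 9 enzyme genes lie between -0.62 and 0.22 with no filled point, and the filled points of the other lists lie between -2.42 and 1.43.

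The likeness of profiles over the 6 arrays was measured as Pearson's r among 1-gene probe sets with an SD of at least 0.3, as a description over arrays of 2 groups. For tsp-15, 274 of 15458 candidates had r of at least 0.95, and the nearest were C03C11.6 and T05E12.6, which were both called lower (adjusted p = 0.0321 and 0.0243). Without exposed 1, exposed 2 or exposed 3, or without control 1 or control 2, neither passed (adjusted p at most 0.124). The call of C03C11.6 was also lost with equal array medians (adjusted p = 0.0551) and with the replicate block (0.0507), and that of T05E12.6 with trend and robust variances (0.0525). For the other 8 genes the number at that likeness was 7 for dpy-31, 93 for bli-4 and between 21 and 41 for the rest. Nearest to bli-4 were lpd-7 (r = 0.992) and the calnexin gene cnx-1 (r = 0.992), whose product folds proteins in the endoplasmic reticulum. Nearest to mlt-7 were clec-53 and C55A6.4, to dpy-31 nhr-16 and cest-33, and to bli-3 M88.4 and F53F8.6. The nearest to dpy-18 were pals-8 and eya-1, to phy-2 pugs-10 and F55B12.15, to pdi-2 srlf-29 and F56C3.10, and to let-268 Y49G5A.1 and T13C5.6. All 16 of these neighbours of the other 8 genes had adjusted p-values of 0.180 or more. Likeness was measured over the same 6 arrays as the group difference. Genes chosen this way largely share the group split of tsp-15, or its absence in the other 8 genes. The calls near tsp-15 and the lack of calls near the other 8 are thus no separate test. The counts at that likeness were not separated from the group split either. Low levels, where RMA compresses differences, were common among the neighbours. The means over the arrays of pals-8, pugs-10, F55B12.15, F56C3.10, Y49G5A.1, M88.4 and C03C11.6 were under 3.866.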

How the data were processed

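Total RNA of 6 samples was measured on one-colour Affymetrix arrays. The deposited table holds log2 expression per probe set. Per the submitters' processing notes, the authors used RMA and Affymetrix Expression Console. RMA removes background, makes the distributions of the arrays alike by quantiles and combines the probes of each set, and small values are compressed by it. The medians of the deposited arrays still differed, from 3.64 to 3.95. No version or genome build was named in the sources, so coordinates were left out. That the scale is log2 follows from the range of values, 1.141 to 13.96.

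Genes were named from GEO's platform table. All 26192 probe sets with a gene there were fitted in limma 3.58.1 (R 4.3.3, lmFit and eBayes), for the difference of exposed and control arrays. Tests were two-sided, with Benjamini-Hochberg adjustment over all of these probe sets and a threshold of 0.05. Unless another setting is named, each adjusted p-value of a single gene in the text comes from that fit. Intervals are its 95% intervals. With 3 arrays against 3, the exact permutation test cannot give a p under 0.1. It was used for 5 pairs of partner genes. Precision is limited by having only 3 arrays in a group.

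The enzyme genes and the gene lists were chosen with earlier results of these data known. Besides the enzyme genes, the naming rule takes up to 4 called genes of each list (the smallest p where none was called), 5 partner genes, and the 2 genes whose profile over the arrays was most like that of each enzyme gene. A gene that 2 parts of that rule name counts under both. Other list members are given as values. The 15 alternatives comprise other scalings, filters, variance models, weights and a replicate block, and each array left out. Deviations of same-numbered arrays from their group means correlated at 0.14, 0.08 and 0.25 for numbers 1, 2 and 3. Those of other combinations ran from -0.23 to 0.19, and the numbers were not taken as pairs. The fit was tested on simulated data. Scanner files were not used here, so detection calls and scan batches were not examined.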

Additional observations from a re-analysis of the deposited data

How the results depend on the processing

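Under the 15 alternatives, 0 of the 9 enzyme genes were called higher in any, and 1 (tsp-15) was called lower with array weights. Of their 135 values, 15 changed sign, 0 of these past the threshold, and 1 passed; the rest kept direction and side of the threshold. The changes of pdi-2, bli-3 and tsp-15 kept their sign in all 15. No cause was tested for the other changes. With equal array medians the log2 changes of bli-4, mlt-7, clec-53, cnx-1 and lpd-7 were 0.13, 0.051, 0.17, 0.077 and 0.15, and with a second quantile normalization that of clec-53 was 0.19. With array weights those of dpy-31, cest-33 and nhr-16 were -0.21, -0.047 and -0.18. Without both arrays numbered 3, phy-2, dpy-31, dpy-17, cest-33, nhr-16 and F55B12.15 were at 0.042, -0.30, 0.13, -0.12, -0.27 and 0.029, and the differences bli-3 minus mlt-7 and bli-4 minus dpy-31 at 0.44 and 0.20.

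With 1 array left out in turn, log2 changes ran from -0.11 to 0.37 for dpy-18, -0.89 to 0.056 for phy-2, -0.20 to 0.69 for let-268, -0.25 to 0.065 for bli-4, -0.30 to 0.34 for dpy-31 and -0.90 to 0.33 for mlt-7. For the other genes they ran from -0.91 to 0.21 for C55A6.4, -0.61 to 0.017 for F55B12.15, -0.0021 to 0.43 for T13C5.6, -0.12 to 0.29 for Y49G5A.1, -0.082 to 0.32 for cest-33, -0.63 to 0.33 for clec-53, -0.33 to 0.048 for cnx-1, -0.11 to 0.67 for eya-1, -0.28 to 0.10 for lpd-7, -0.29 to 0.40 for nhr-16 and -0.11 to 0.31 for pals-8. The differences ran from -0.59 to 0.45 for bli-3 minus mlt-7, -0.48 to 0.047 for bli-4 minus dpy-31 and -0.17 to 0.12 for dpy-18 minus pdi-2.

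Over all probe sets 278 were called higher and 681 lower. Leaving out 1 array gave 6 to 661 higher and 43 to 1335 lower, with the fewest without control 2 or exposed 1 and the most without control 3. A second quantile normalization gave 429 higher, equal array medians 593 higher and 381 lower, array weights 1330 and 2143, and both arrays numbered 3 left out 827 and 1490. Higher calls made up 29.0% as deposited, 41.8% after the second quantile normalization and 60.9% with equal medians. With the replicate block 326 were called higher, and 0 enzyme genes were called. Of the deviations, control 1 correlated best with its own number, exposed 1 with control 2. Control 3 correlated at 0.25 with exposed 3 and at -0.23 and -0.10 with exposed 1 and exposed 2. The block ended the call of bli-6 and C03C11.6. Equal array medians also ended that of C03C11.6, and trend and robust variances that of T05E12.6.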
